A study of Homo sapiens with 12 samples.

Results

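The integrated stress response core genes described here are ATF4, ATF5, ATF3, DDIT3, CHAC1, TRIB3, SESN2, ASNS, DDIT4 and PPP1R15A. They were chosen by name as textbook components and targets of the response, with earlier results of these data known. Each was matched by its Ensembl identifier to 1 row of the deposited count table, so they are 10 of its 58735 genes. All 10 had enough reads to be tested, among 15060 genes that were. The cells were OCI-AML2, an established line of human acute myeloid leukemia in which KMT2A is rearranged. Cells carried either a luciferase guide (sgLuc, labelled WT, called control here) or 1 of 2 guides against KDM6A, the histone H3 lysine 27 demethylase also named UTX (sgUTX_2 and sgUTX_4, labelled UTX knockout), delivered by lentivirus. Each of the 3 lines received the solvent DMSO or 1 µM SGC0946, an inhibitor of the histone H3 lysine 79 methyltransferase DOT1L, for 6 days, and 2 libraries were made from each of the 6 combinations. No untransduced cells were analysed here, so every group carries a guide, and whether the lines are clones or pools is not given in the sources used here.

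The integrated stress response begins when a kinase (EIF2AK1, EIF2AK2, EIF2AK3 or EIF2AK4) phosphorylates the translation factor eIF2, which lowers protein synthesis in general but favours translation of the ATF4 messenger RNA. ATF4 protein, a bZIP transcription factor, then raises transcription of genes for amino acid supply, redox balance and, in long stress, cell death, while PPP1R15A and TRIB3 damp the response. Because ATF4 and several partners are controlled largely at translation, their transcript level and their activity need not move together, and only transcripts were measured here. Among blood cancers the pathway is best known through asparaginase, a drug that depletes the amino acid which ASNS, a member described below, makes.

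Total counts lay between 15480493 and 23262141 per library. KDM6A transcript, the check of the targeted gene, was 32.0 and 27.9 CPM (counts relative to library depth, scaled by edgeR's TMM factors) in the control DMSO libraries, 14.7 and 15.6 with sgUTX_2 and 49.4 and 46.2 with sgUTX_4. With SGC0946 it was 35.1 and 34.5 CPM in the controls, 14.4 and 15.9 with sgUTX_2 and 43.2 and 48.9 with sgUTX_4, so the libraries labelled sgUTX_4 went against a loss of transcript. A guide can disable the protein and leave the transcript, and protein was not measured here, so "sgUTX" below names the libraries by their label. The share of counts in genes for ribosomal proteins was 17.7% and 18.9% in control DMSO, 12.9% and 13.1% in control SGC0946 and 10.97% to 12.1% in the sgUTX libraries, and the TMM factors of the control DMSO libraries, 0.854 and 0.887, were the lowest. All 10 markers of the cell line were detected, with a summed level of 1984 to 2122 CPM in control DMSO, 1579 to 1969 in sgUTX DMSO, 11602 to 11818 in control SGC0946 and 4689 to 6631 in sgUTX SGC0946. LYZ made most of the SGC0946 sums (9246 to 9453 CPM in control and 2890 to 4699 CPM in sgUTX), and with SGC0946 in control cells 6 of the 10 markers passed as higher and 4 as lower (MEIS1, FLT3, HOXA9 and CEBPA). Markers of lymphoid cells summed to 109 to 111, 45.6 to 51.8, 83.6 to 86.1 and 45.3 to 58.0 CPM in the same order, with MS4A1 at 0. NCAM1 made most of that sum (103.6 to 103.98 CPM in control DMSO and 69.6 to 70.4 CPM in control SGC0946), while CD3D went from 1.29 and 2.12 CPM to 7.91 and 8.26 CPM in the same control libraries. Markers of adherent cells, mostly VIM, summed to 387 to 430, 43.8 to 50.2, 646 to 767 and 107 to 127 CPM, with EPCAM and CDH1 at 0 in all groups but sgUTX SGC0946. The part of these shifts in the results was not tested. In bulk RNA, fewer cells of a kind and less RNA per cell cannot be told apart. The labels do not say that the 2 libraries of a combination came from separate cultures, so the spread between them may be technical. Each p-value reflects the spread between libraries, which in the sgUTX groups also holds the difference between the guides. In the fit that gave each guide its own mean, that difference is left out.

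Promoter windows of the 10 genes, from 250 bases before to 50 bases after each RefSeq transcription start, were searched on both strands for 4 motifs of stress signalling. The C/EBP-ATF response element, the site of ATF4 with a C/EBP partner, was searched as TGATGNAA. It was found in 3 of the 10 genes (ASNS, ATF3 and CHAC1). By window, that was 3 of the members' 18 windows, against 3.62% of all 35116 windows. These 3 are shown because, between genotypes with SGC0946, CHAC1 and ASNS were raised most and ATF3 was lowered most among the members. The ASNS match lies 68 bases before the start and the CHAC1 match, on the opposite strand, 209 bases before it, each with 30 bases printed. The ATF3 match lies 191 bases before the upstream of its starts, and the printed run ends at the first exon. Each line runs 5′ to 3′ on the gene's own strand, from RefSeq on GRCh38.p14, with the match in capitals. The positions are chr7:97872458-97872487 on the minus strand for ASNS, chr15:40953251-40953280 on the plus strand for CHAC1 and chr1:212565157-212565333 on the plus strand for ATF3.
ASNS: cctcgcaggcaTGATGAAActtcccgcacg
CHAC1: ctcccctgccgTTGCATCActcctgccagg
ATF3: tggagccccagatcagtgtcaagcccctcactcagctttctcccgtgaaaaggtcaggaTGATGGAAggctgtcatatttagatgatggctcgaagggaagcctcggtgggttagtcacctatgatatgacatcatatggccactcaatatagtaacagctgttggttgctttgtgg

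Both members that were lower with the KDM6A guides at every setting, PPP1R15A and DDIT4, held other motifs. The cAMP response element TGACGTCA, a site of CREB and ATF family factors, was found 58 bases before the PPP1R15A start. That was 1 of the members' 18 windows, against 1.85% of all windows. The core of the hypoxia response element, ACGTG, was found 125 bases before the DDIT4 start and also before ATF4. It lay in 3 of the members' 18 windows and in 21.4% of all windows, so it is common. The endoplasmic reticulum stress response element, a site of ATF6, was found in none of the members' windows and in 0.0769% of all. A match is a string of letters and not a measured binding site. The runs below are chr19:48872171-48872391 and chr10:72273674-72273919, both on the plus strand.
PPP1R15A: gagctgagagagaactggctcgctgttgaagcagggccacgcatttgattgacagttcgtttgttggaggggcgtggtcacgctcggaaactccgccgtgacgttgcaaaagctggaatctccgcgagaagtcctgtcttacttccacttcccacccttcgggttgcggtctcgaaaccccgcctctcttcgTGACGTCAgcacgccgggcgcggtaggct
DDIT4: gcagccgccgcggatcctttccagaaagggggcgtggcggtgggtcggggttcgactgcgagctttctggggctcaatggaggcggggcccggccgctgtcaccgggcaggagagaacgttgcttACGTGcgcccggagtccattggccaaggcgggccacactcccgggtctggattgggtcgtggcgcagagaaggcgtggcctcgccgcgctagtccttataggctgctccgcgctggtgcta

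Levels between genes were compared per kilobase of exon. Over the 12 libraries ATF4 was the most abundant member, at 328 CPM per kb, ahead of ATF5 at 120, TRIB3 at 87.7 and DDIT4 at 50.5 CPM per kb. SESN2 (18.0), PPP1R15A (15.9), CHAC1 (14.8) and DDIT3 (9.38 CPM per kb) followed. ATF3 at 3.65 and ASNS at 0.839 CPM per kb were the lowest. The order changed by group: in control DMSO DDIT4 (95.1) stood above TRIB3 (55.8), and PPP1R15A (28.5) and DDIT3 (14.4) above SESN2 (8.54) and CHAC1 (4.48 CPM per kb). In control SGC0946 ATF3 (7.22) stood above CHAC1 (1.21 CPM per kb). The order of abundance was not the order of variation. Among the 6 combinations the highest mean CPM of CHAC1 was 24.7 times the lowest, against 8.01 times for ASNS and 1.70 times for ATF4. The other 7 members lay between 3.01 times (DDIT3) and 5.68 times (ATF5). Control cells with SGC0946 held the lowest mean of ATF4, ATF5, TRIB3, CHAC1, ASNS and SESN2, as the plot of levels by guide and treatment shows.

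**Figure D1:**
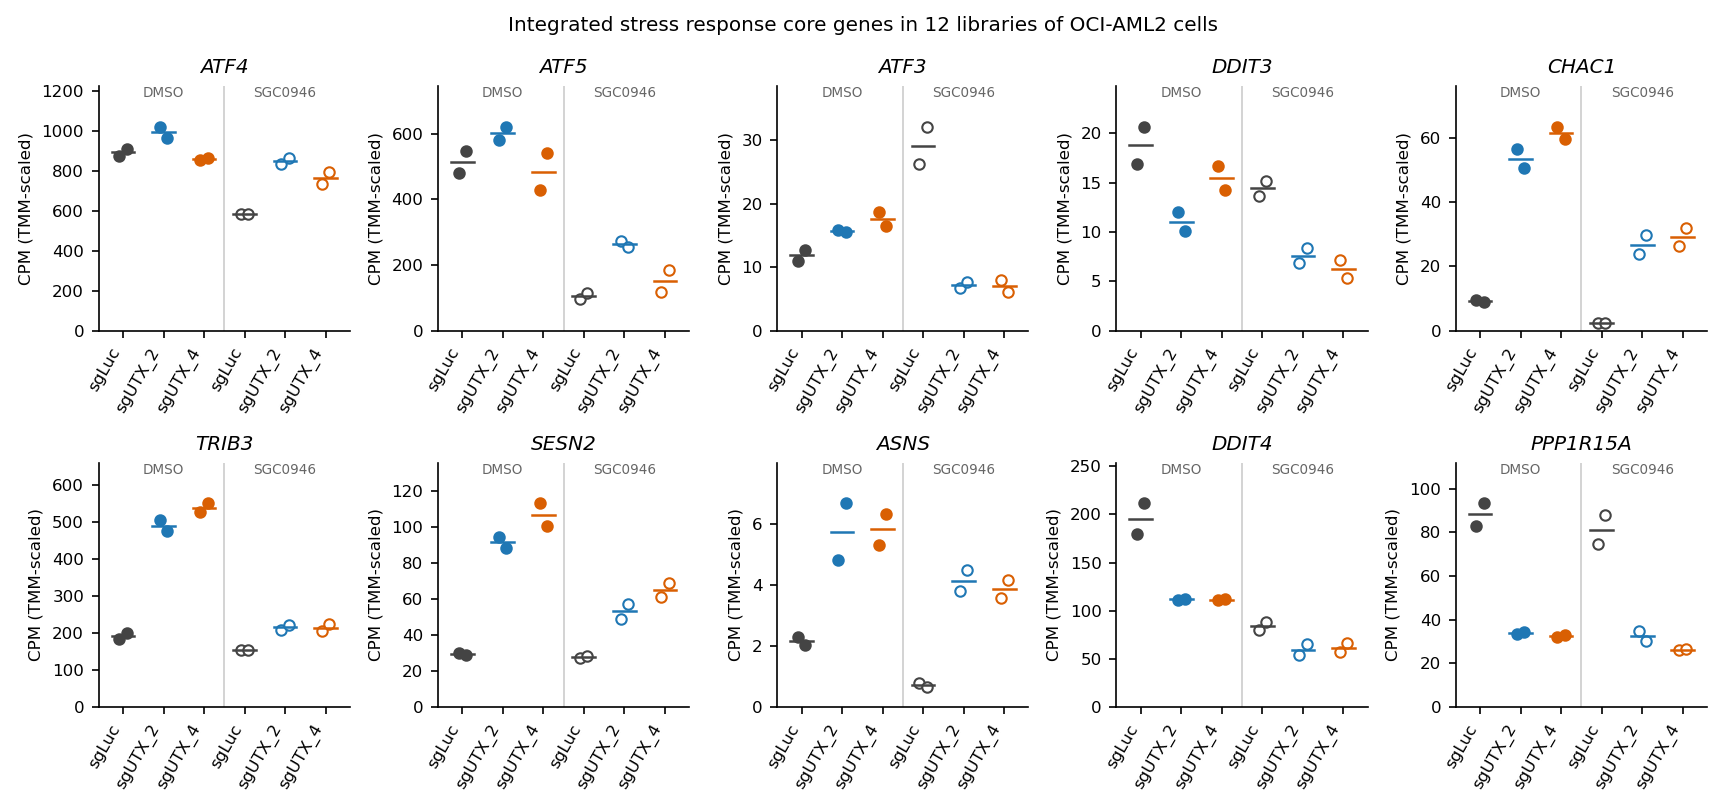
Each panel plots 1 gene in CPM scaled by TMM factors (vertical axis, linear from 0), with 1 point per library, a bar at the mean of the 2 libraries, and guides along the horizontal axis, filled points for DMSO and open points for SGC0946. CHAC1, TRIB3, SESN2 and ASNS are higher with both KDM6A guides in both treatments, PPP1R15A is lower with both, and ATF3 with SGC0946 is high in the control libraries (26.2 and 32.1 CPM) and low in the sgUTX libraries (6.13 to 7.99 CPM).

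ATF4, the central transcription factor of the response (chr22:39519695-39522685 on the plus strand in GENCODE 29, GRCh38, as are the gene positions that follow), did not pass in DMSO with the 2 KDM6A guides together and was higher with them under SGC0946. In DMSO it measured 874 and 912 CPM in the control libraries, 1022 and 965 CPM with sgUTX_2 and 857 and 866 CPM with sgUTX_4. The sgUTX_2 libraries lay above the controls and the sgUTX_4 libraries below them. The log2 fold change of sgUTX against control was 0.05 (SE 0.07, 95% interval -0.12 to 0.22, edgeR adjusted p = 0.543). ATF4 passed with library size alone as the scaling, at 0.33 (edgeR adjusted p = 0.00036), where the median of all genes lay at 0.26. With sgUTX_2 alone it passed at 0.15 (edgeR adjusted p = 0.027), and with sgUTX_4 alone it lay at -0.05 (0.471). With SGC0946 the control libraries measured 587 and 585 CPM, the sgUTX_2 libraries 834 and 863 CPM and the sgUTX_4 libraries 737 and 793 CPM. All 4 sgUTX libraries therefore lay above both controls, and ATF4 was 1.38-fold higher (log2 0.46, SE 0.08, edgeR adjusted p = 1.54e-05).

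ATF5 (chr19:49928702-49933935, plus strand), a bZIP factor controlled at translation in the same manner as ATF4, ran close to it across libraries. It measured 480 and 546 CPM in control DMSO, 581 and 621 CPM with sgUTX_2 and 427 and 541 CPM with sgUTX_4. These groups overlapped, and the log2 fold change of 0.08 had a wide interval (-0.63 to 0.79, edgeR adjusted p = 0.836). Under the inhibitor it measured 96.5 and 115 CPM in the controls, 273 and 255 CPM with sgUTX_2 and 118 and 185 CPM with sgUTX_4. The lower sgUTX_4 library lay just above the higher control. ATF5 was 1.97-fold higher there (log2 0.97, SE 0.33, edgeR adjusted p = 0.032), but the call was lost with sgUTX_4 alone (0.52, edgeR adjusted p = 0.106) and without either sgLuc_SGC0946 or either sgUTX_2_SGC0946 library (edgeR adjusted p of 0.0627 to 0.17). Its exons share 21.2% of their bases with NUP62 on the opposite strand. NUP62 itself passed in none of the 5 comparisons of genotype and treatment, with a log2 fold change of -0.16 between sgUTX and control in DMSO.

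ATF3 (chr1:212565334-212620777, plus strand), a bZIP repressor that ATF4, p53 and growth factor signalling all induce, was the member with opposite directions in the 2 treatments. In DMSO it measured 11.01 and 12.6 CPM in the controls, 15.9 and 15.5 CPM with sgUTX_2 and 18.7 and 16.5 CPM with sgUTX_4. Every sgUTX library was above both controls, a 1.41-fold difference (log2 0.50, SE 0.13, edgeR adjusted p = 0.00257) that missed the threshold without control DMSO replicate 1 (0.40, edgeR adjusted p = 0.0655). With SGC0946 the controls rose to 26.2 and 32.1 CPM while the sgUTX libraries fell to 6.77 and 7.68 CPM (sgUTX_2) and 7.99 and 6.13 CPM (sgUTX_4). ATF3 was then 4.08-fold lower in the sgUTX libraries (log2 -2.03, SE 0.12, edgeR adjusted p = 2.07e-12).

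DDIT3 (chr12:57516588-57521737, minus strand) encodes CHOP, the bZIP factor tied to cell death in prolonged stress. It measured 16.9 and 20.7 CPM in control DMSO, 11.99 and 10.1 CPM with sgUTX_2 and 16.6 and 14.2 CPM with sgUTX_4. The sgUTX_2 libraries were clearly below the controls and the higher sgUTX_4 library nearly met them. DDIT3 was 1.42-fold lower with sgUTX (log2 -0.51, SE 0.17, edgeR adjusted p = 0.0157), yet -0.28 (edgeR adjusted p = 0.0988) with sgUTX_4 alone, -0.23 (0.234) with library size alone and -0.36 (0.194) without control DMSO replicate 2. Under SGC0946 DDIT3 measured 13.6 and 15.2 CPM in the controls, 6.86 and 8.34 CPM with sgUTX_2 and 7.14 and 5.37 CPM with sgUTX_4. Here the groups were well apart, 2.07-fold (log2 -1.05, SE 0.18, edgeR adjusted p = 5.79e-05). DDIT3 shares 27.2% of its exonic bases with MARS1 (MARS in GENCODE 29) on the opposite strand, and MARS1 moved the other way, by 1.41 in DMSO and 1.56 with SGC0946, so reads of the pair cannot be told apart without knowing the counting.

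CHAC1 (chr15:40952962-40956519, plus strand), which degrades glutathione and is a sharp reporter of ATF4 activity, differed most between the guides' libraries and the controls. In DMSO it measured 9.58 and 8.86 CPM in the controls, 56.4 and 50.5 CPM with sgUTX_2 and 63.4 and 59.6 CPM with sgUTX_4. The lowest sgUTX library was far above the highest control, a 6.21-fold difference (log2 2.63, SE 0.13, edgeR adjusted p = 8.56e-14). With SGC0946 it measured 2.47 and 2.495 CPM in the controls (41 and 45 counts), 23.8 and 29.7 CPM with sgUTX_2 and 26.2 and 31.7 CPM with sgUTX_4. That was 11.2-fold higher with sgUTX (log2 3.48, SE 0.16, edgeR adjusted p = 2.27e-14). In order of level, sgUTX DMSO (57.5 ± 5.46 CPM, SD, n = 4) stood above sgUTX SGC0946 (27.9 ± 3.53, n = 4), control DMSO (9.22 ± 0.513, n = 2) and control SGC0946 (2.48 ± 0.0142, n = 2), and no 2 neighbours overlapped.

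TRIB3 (chr20:362835-397559, plus strand), a pseudokinase that ATF4 induces and that binds ATF4 and AKT, measured 184 and 200 CPM in control DMSO, 506 and 475 CPM with sgUTX_2 and 528 and 551 CPM with sgUTX_4. All 4 sgUTX libraries stood well above both controls, by 2.69-fold (log2 1.43, SE 0.07, edgeR adjusted p = 7.48e-14). Inhibitor-treated controls measured 154 and 153 CPM, against 209 and 222 CPM with sgUTX_2 and 205 and 225 CPM with sgUTX_4. The groups were still apart, but only 1.40-fold (log2 0.49, SE 0.07, edgeR adjusted p = 1.76e-06). The sgUTX libraries with SGC0946 were thus near the untreated control level: their lowest, 205 CPM, was just above the highest control DMSO library, 200 CPM.

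SESN2 (chr1:28259527-28282491, plus strand) encodes Sestrin 2, a leucine sensor that restrains the growth kinase complex mTORC1. It measured 30.2 and 28.8 CPM in control DMSO, 94.4 and 88.4 CPM with sgUTX_2 and 113 and 101 CPM with sgUTX_4. The sgUTX libraries were 3.36-fold above the controls (log2 1.75, SE 0.13, edgeR adjusted p = 6.09e-09). With SGC0946 it measured 27.5 and 28.1 CPM in the controls, 49.0 and 57.5 CPM with sgUTX_2 and 61.4 and 68.9 CPM with sgUTX_4. No library of one group reached the other, and the difference was 2.13-fold (log2 1.09, SE 0.12, edgeR adjusted p = 1.57e-06).

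ASNS (chr7:97852118-97872542, minus strand), asparagine synthetase, is the enzyme that makes asparagine and the textbook gene of the amino acid response. Its counts were low, 12 to 152 reads per library. In DMSO it measured 2.30 and 2.04 CPM in the controls (37 and 27 counts), 4.81 and 6.66 CPM with sgUTX_2 and 5.29 and 6.32 CPM with sgUTX_4. Despite the few reads the groups did not overlap, with a 2.65-fold difference (log2 1.40, SE 0.23, edgeR adjusted p = 1.18e-05). With SGC0946 the controls measured 0.785 and 0.665 CPM (13 and 12 counts), the sgUTX_2 libraries 3.79 and 4.48 CPM and the sgUTX_4 libraries 3.57 and 4.14 CPM. The difference there was 5.50-fold (log2 2.46, SE 0.28, edgeR adjusted p = 8.27e-08). ASNS shares 44.6% of its exonic bases with the same-strand gene AC079781.5, so reads may have been left uncounted. That gene held 190 counts in all 12 libraries.

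PPP1R15A (chr19:48872392-48876057, plus strand) encodes GADD34, the phosphatase subunit that removes phosphate from eIF2 and so ends the response. It was lower with the KDM6A guides, as were DDIT4 and DDIT3, and unlike CHAC1, TRIB3, SESN2 and ASNS. It measured 83.1 and 93.3 CPM in control DMSO, 33.6 and 34.3 CPM with sgUTX_2 and 31.9 and 33.0 CPM with sgUTX_4. The sgUTX libraries were 2.65-fold lower (log2 -1.41, SE 0.09, edgeR adjusted p = 4.71e-11). With SGC0946 it measured 74.5 and 88.1 CPM in the controls, 34.7 and 30.4 CPM with sgUTX_2 and 26.0 and 26.5 CPM with sgUTX_4. The difference there was 2.76-fold (log2 -1.47, SE 0.09, edgeR adjusted p = 2.73e-11). PPP1R15A therefore followed the guide and hardly the treatment.

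DDIT4 (chr10:72273920-72276036, plus strand) encodes REDD1, an inhibitor of mTORC1 that both ATF4 and low oxygen induce. It measured 180 and 212 CPM in control DMSO, 112 and 112 CPM with sgUTX_2 and 111 and 112 CPM with sgUTX_4. The 4 sgUTX libraries were almost alike, 112 ± 0.26 CPM (SD, n = 4), and 1.75-fold below the controls (log2 -0.81, SE 0.08, edgeR adjusted p = 8.1e-09). Under SGC0946 DDIT4 measured 79.6 and 88.0 CPM in the controls, 53.8 and 65.6 CPM with sgUTX_2 and 56.9 and 66.3 CPM with sgUTX_4. All sgUTX libraries were again below both controls, 1.38-fold (log2 -0.47, SE 0.08, edgeR adjusted p = 3.92e-05). DDIT4 shares 41.2% of its exonic bases with DDIT4-AS1, which had 0 counts in these libraries.

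The members thus did not move as 1 block between genotypes. In DMSO 5 of 10 passed as higher with sgUTX (CHAC1, SESN2, TRIB3, ASNS and ATF3) and 3 as lower (PPP1R15A, DDIT4 and DDIT3). Of all 15060 genes tested, 28.7% passed as higher and 32.3% as lower in that comparison. The members' median log2 fold change was 0.29 and that of all genes -0.01. With SGC0946 6 of 10 passed as higher (CHAC1, ASNS, SESN2, ATF5, TRIB3 and ATF4) and 4 as lower (ATF3, PPP1R15A, DDIT3 and DDIT4), against 27.7% and 29.3% of all genes. The share called lower was close to that of all genes in DMSO and with SGC0946. Scaled by library size alone, 6 members passed as higher and 2 as lower in DMSO, and 6 and 4 with SGC0946. That scaling raised the median of all genes to 0.26 and 0.20, and 66.7% and 65.0% of called genes were then higher, against 47.1% and 48.6%. CPM of the 2 genotypes did not overlap for 8 of 10 members in DMSO, where 68% of all genes did not overlap, the exceptions being ATF4 and ATF5. With SGC0946 no member overlapped, against 68.1% of all genes without overlap.

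**Figure D2:**
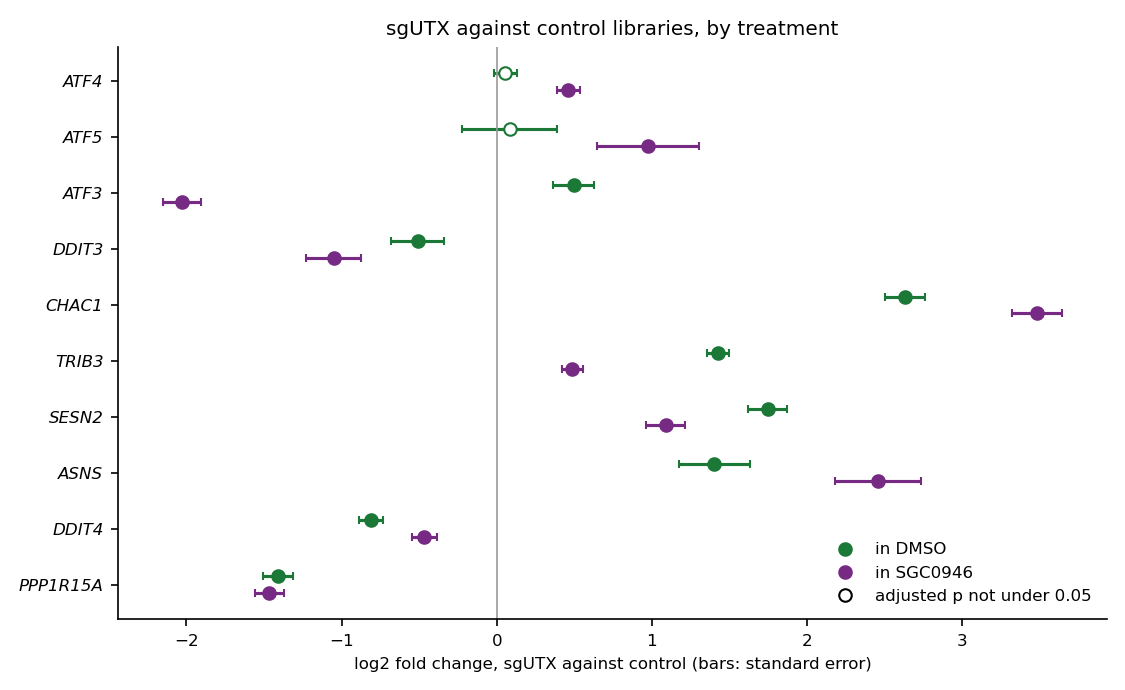
Points give the log2 fold change of the 4 sgUTX libraries against the 2 control libraries for each member in DMSO (green) and with SGC0946 (purple), bars give the standard error of the fit, and open points did not pass edgeR's adjusted p of 0.05. CHAC1 lies farthest to the right in both treatments (2.63 and 3.48), PPP1R15A keeps the same place (-1.41 and -1.47), and ATF3 lies at 0.50 in DMSO and -2.03 with SGC0946.

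The next comparison asked what the DOT1L inhibitor did to these genes in control cells. ATF5, CHAC1, ASNS and DDIT4 fell most, ATF4 and TRIB3 fell less, and ATF3 rose. ATF5 dropped 4.84-fold (log2 -2.27, SE 0.38, edgeR adjusted p = 0.00104), CHAC1 3.71-fold (-1.89, SE 0.20, 5.6e-08), ASNS 2.998-fold (-1.58, SE 0.34, 0.000458) and DDIT4 2.33-fold (-1.22, SE 0.09, 5.39e-10). ATF4 changed by -0.61 (SE 0.09, edgeR adjusted p = 3.09e-06) and TRIB3 by -0.32 (SE 0.08, 0.00148). ATF3 increased 2.47-fold (log2 1.31, SE 0.15, edgeR adjusted p = 1.19e-07). In all, 6 of 10 members were lower, where 24.2% of all genes were, and 1 was higher, where 24.7% were. Scaled by library size alone, 60.9% of called genes were higher, against 50.6%. The groups were apart for 9 of 10 members, all but PPP1R15A, and for 76.4% of all genes. DDIT3 (-0.38, 95% interval -0.84 to 0.09), PPP1R15A (-0.12, -0.37 to 0.14) and SESN2 (-0.09, -0.42 to 0.25) did not pass, and DDIT3 passed when the 2 groups were fitted alone (edgeR adjusted p = 0.0155).

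In sgUTX cells the inhibitor lowered nearly the whole set: 9 of 10 members passed as lower, where 16.4% of all genes did. Of all genes 17.4% passed as higher. ATF5 fell most (log2 -1.38, SE 0.26, edgeR adjusted p = 0.00314), then TRIB3 (-1.26, SE 0.05, 2.26e-14), ATF3 (-1.22, SE 0.11, 5.44e-09) and CHAC1 (-1.04, SE 0.08, 1.47e-09). DDIT3 (-0.92, SE 0.15, 9.11e-05), DDIT4 (-0.88, SE 0.07, 7.66e-10) and SESN2 (-0.75, SE 0.09, 9.53e-06) came next. The smallest passing changes were ASNS (-0.53, SE 0.16, edgeR adjusted p = 0.0109) and ATF4 (-0.20, SE 0.06, 0.0115). The ATF4 call was lost without sgUTX_2 DMSO replicate 1 (edgeR adjusted p = 0.0611) or sgUTX_4 SGC0946 replicate 1 (0.0505), and its libraries overlapped between treatments. ASNS missed the threshold with either guide alone (edgeR adjusted p of 0.108 and 0.0565). PPP1R15A did not pass (-0.17, 95% interval -0.36 to 0.02, edgeR adjusted p = 0.119), also with overlapping libraries, and passed at -0.31 (0.014) with sgUTX_4 alone. The other 8 members did not overlap between treatments, against 31.2% of all genes.

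Whether the 2 genotypes responded differently was tested as the sgUTX response minus the control response, in which 18.3% of all genes passed as higher and 16.5% as lower. Among the members 4 passed as higher and 3 as lower. Under library size alone 2 passed as higher, and 40.6% of called genes were higher against 52.6%. ATF3 differed most (log2 -2.52, SE 0.18, edgeR adjusted p = 7.14e-10), since it rose in control and fell in sgUTX cells. TRIB3 (-0.94, SE 0.09, edgeR adjusted p = 8.18e-08) and SESN2 (-0.66, SE 0.17, 0.00727) fell more in sgUTX cells. CHAC1 (0.85, SE 0.22, edgeR adjusted p = 0.00447), ASNS (1.06, SE 0.37, 0.032), ATF4 (0.41, SE 0.10, 0.00389) and DDIT4 (0.34, SE 0.11, 0.024) fell less. The targets raised with sgUTX in DMSO therefore split in their response to the inhibitor. On the log2 scale the gap between genotypes narrowed for TRIB3 and SESN2 and widened for CHAC1 and ASNS. That widening is of ratios: mean CHAC1 in sgUTX and control was 57.5 and 9.22 CPM in DMSO, and 27.9 and 2.48 CPM with SGC0946. The ASNS difference rests on few reads and was lost without any 1 of the 4 control libraries (edgeR adjusted p of 0.0531 to 0.141) or sgUTX_2 SGC0946 replicate 2 (0.0529), and with sgUTX_4 alone (1.00, 0.0755). That of DDIT4 was lost without control DMSO replicate 2 (0.212), control SGC0946 replicate 1 (0.159), sgUTX_2 SGC0946 replicate 2 (0.0504) or sgUTX_4 SGC0946 replicate 2 (0.0502), with library size alone (0.0797) and with sgUTX_2 alone (0.32, 0.0707). ATF5 (0.89, 95% interval -0.12 to 1.91), DDIT3 (-0.54, -1.12 to 0.04) and PPP1R15A (-0.06, -0.37 to 0.26) did not pass. With single guides the DDIT3 difference was -0.93 (edgeR adjusted p = 0.00114) for sgUTX_4 and -0.16 (0.615) for sgUTX_2. The gap between these guide values was not itself tested. DDIT3 also passed with no filter (0.0108), in the 6-group fit (0.0189) and without sgUTX_2 DMSO replicate 2 (0.0239). ATF5 passed with sgUTX_2 alone (1.09, edgeR adjusted p = 0.0396) and without sgUTX_4 SGC0946 replicate 1 (1.08, 0.0225), and not with sgUTX_4 alone (0.60, 0.218).

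**Figure D3:**
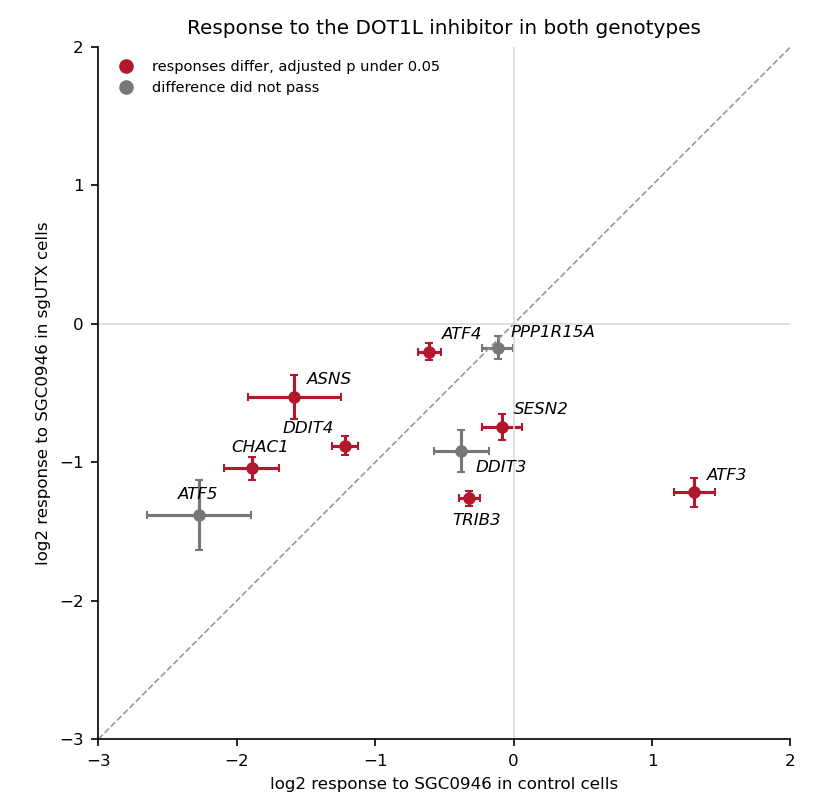
The log2 response to SGC0946 in control cells (horizontal axis) is plotted against that in sgUTX cells (vertical axis) for the 10 members, with bars for standard errors, a dashed line where both are equal, and red where the difference of the responses passed edgeR's adjusted p of 0.05. ATF3 alone lies right of 0, at 1.31 in control and -1.22 in sgUTX cells, TRIB3 and SESN2 lie below the line, and CHAC1, ASNS, ATF4 and DDIT4 above it.

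The 2 KDM6A guides were compared in a fit that gave each guide its own mean. Of the members, ATF4 passed in DMSO, lower with sgUTX_4 than with sgUTX_2 (log2 -0.21, SE 0.06, edgeR adjusted p = 0.0484), where 1.77% of all genes passed as lower and 1.72% as higher. SESN2 passed with SGC0946, higher with sgUTX_4 (log2 0.29, SE 0.08, edgeR adjusted p = 0.0403), where 1.61% passed as higher and 1.4% as lower. Both were near the threshold and lost with the replicate number as a block (edgeR adjusted p of 0.0643 for ATF4 and 0.0521 for SESN2). Against the controls, CHAC1 measured 2.53 with sgUTX_2 and 2.73 with sgUTX_4 in DMSO on the log2 scale, and 3.43 and 3.54 with SGC0946. PPP1R15A measured -1.38 and -1.44 in DMSO, and -1.32 and -1.63 with SGC0946. TRIB3 gave 1.36 and 1.49 in DMSO and 0.49 with each guide under SGC0946. Wider gaps between the guides, none past the test, were those of DDIT3 in DMSO (-0.77 with sgUTX_2 and -0.28 with sgUTX_4) and ATF5 with SGC0946 (1.32 and 0.52). The directions of CHAC1, PPP1R15A and TRIB3 held although KDM6A transcript was lower than control with sgUTX_2 and higher with sgUTX_4.

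The rest of the pathway was read from gene lists, also chosen with earlier results known, by counts of genes past the edgeR test. These are to be read against all genes tested: between genotypes 28.7% passed as higher and 32.3% as lower in DMSO, and 27.7% and 29.3% with SGC0946. Amino acid transporters and enzymes of amino acid synthesis were higher with sgUTX as a group: 16 of 18 measured genes in DMSO and 18 of 18 with SGC0946, 0 lower in either, with medians of 1.36 and 1.59. In DMSO the largest were SLC7A11, the cystine importer, at 2.69, SLC6A9, a glycine transporter, at 2.40 and SLC7A5, a leucine transporter, at 1.76. With SGC0946 they were SLC6A9 at 3.98, ALDH1L2 of folate metabolism at 2.46 and PSAT1 of serine synthesis at 2.43. Cytosolic aminoacyl tRNA synthetases, which charge tRNAs with amino acids, were higher for 12 of 13 genes in both treatments (medians 0.81 and 0.90), with MARS1 at 1.41 and IARS1 at 1.12 in DMSO. SGC0946 lowered both lists in both genotypes. Of all genes, 24.2% passed as lower with it in control cells and 16.4% in sgUTX cells. The transporter and synthesis list had 14 of 18 genes lower in control cells (median -0.68) and 13 of 18 in sgUTX cells (-0.57), and the synthetases 12 of 13 (-0.68) and 13 of 13 (-0.54).

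Upstream of ATF4 the share of genes called in DMSO was nearer that of all genes. Among 18 genes for eIF2 kinases, eIF2, eIF2B and their regulators, 7 were higher and 3 lower with sgUTX in DMSO (median 0.10), with GCN1, the activator of the kinase EIF2AK4, at 0.73 and PPP1R15B, the constant counterpart of PPP1R15A, at 0.55. That split became 13 and 0 with library size alone. With SGC0946 11 were higher and 3 lower (median 0.23), EIF2AK2 being lower at -0.65. Of 8 bZIP partners and co-regulators of ATF4, 5 were higher and 1 lower in DMSO (median 0.47), with BATF3 at 1.81, and 3 were higher and 3 lower with SGC0946 (median 0.09), with TRIB2, a relative of TRIB3, at -1.23.

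A further list of other stress targets of ATF4 went both ways. Of 12 measured, 5 were higher and 6 lower with sgUTX in DMSO (median -0.24), with NIBAN1 at 1.38 and SQSTM1, an autophagy receptor, at -1.23. With SGC0946 3 were higher and 6 lower (median -0.24), SQSTM1 at -1.63 among them, and with library size alone the medians were 0.03 and -0.06. Targets of ATF6 and XBP1, the other arms of the unfolded protein response, were split 5 and 5 of 14 in DMSO (median 0.07), near the shares of all genes, with the chaperone HSPA5 at -0.79, and 3 and 3 with SGC0946. With library size alone the DMSO split was 7 and 0, so no direction can be given for that list.

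Some members are also targets of other pathways, and genes of those lists passed too. Of all genes, 28.7% passed as higher and 32.3% as lower between genotypes in DMSO, and 27.7% and 29.3% with SGC0946. For the inhibitor the shares were 24.7% and 24.2% in control cells, 17.4% and 16.4% in sgUTX cells, and 18.3% and 16.5% for the difference. Low oxygen targets, to which DDIT4 is related, were lower with sgUTX for 9 of 10 measured genes in DMSO (median -2.68), led by ADM at -5.94, PFKFB4 at -5.14 and NDRG1 at -3.20, and for 9 of 10 with SGC0946 (median -1.91). With the inhibitor 7 fell and 0 rose in control cells (median -0.52), where DDIT4 changed by -1.22. In sgUTX cells 4 low oxygen targets rose and 3 fell (median 0.08), while DDIT4 changed by -0.88. Immediate early genes, to which ATF3 is related, rose with SGC0946 in control cells for 8 of 12 genes and fell for 0 (median 0.83), led by JUN at 2.27 and DUSP1 at 2.23. In sgUTX cells 2 rose, 16.67% and near the share of all genes, and 6 fell (median -0.45). The difference of the responses was lower for 11 of 12 genes (median -1.22). Between genotypes 3 immediate early genes were higher and 4 lower in DMSO (median -0.35), near the shares of all genes, while ATF3 was higher at 0.50. With SGC0946 0 were higher and 9 lower with sgUTX (median -1.41). Targets of p53, which also induces SESN2 and ATF3, rose in control cells for 10 of 13 genes (median 0.46), CDKN1A by 2.15. In sgUTX cells 3 rose and 2 fell (median 0.09), shares of 23.08% and 15.38% that were near those of all genes. The difference was lower for 8 of 13 and higher for 3 (median -0.59), CDKN1A at -2.81. Between genotypes the p53 list had 6 higher and 6 lower in DMSO (median 0.55), and 3 and 5 with SGC0946 (median -0.02). With the inhibitor SESN2 did not pass in control cells (-0.09) and was lower in sgUTX cells (-0.75), a difference of -0.66. Whether these pathways account for any member's change was not tested.

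**Figure D4:**
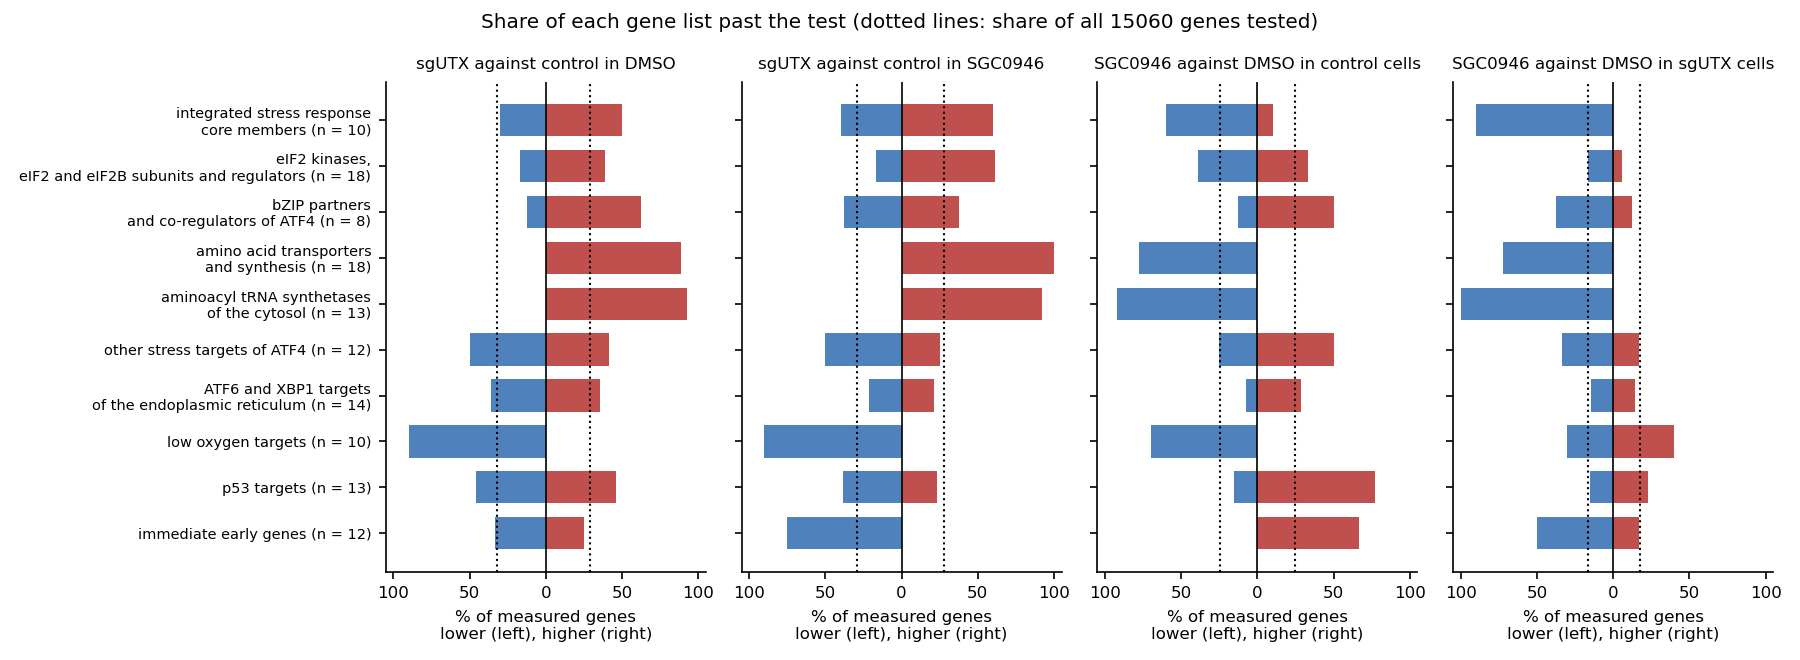
Bars show, for each list, the percent of its measured genes that passed edgeR's adjusted p of 0.05 as lower (blue, left) or higher (red, right) in 4 comparisons, and dotted lines show the percent of all 15060 genes tested. Amino acid transporters and synthesis and the tRNA synthetases extend to the right in both genotype comparisons and to the left in both inhibitor comparisons, while the low oxygen list extends to the left with sgUTX.

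Across the 12 libraries the members fell into patterns, described by Pearson's correlation of log2 CPM. These libraries form 6 combinations, so the values mostly reflect differences between combinations. CHAC1 and ASNS had the closest pattern of all pairs of members (0.98), followed by CHAC1 and SESN2 (0.94), ATF4 and ATF5 (0.90) and TRIB3 and SESN2 (0.90). DDIT3 with DDIT4 reached 0.83, yet DDIT3 with ATF4 lay at 0.0026. PPP1R15A ran against SESN2 (-0.85), CHAC1 (-0.84) and ASNS (-0.81).

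Outside the members, the single gene with the most similar pattern was chosen from 10147 candidates with a mean of at least 5 CPM. It was PRPS2 for ATF4 (0.985), BLACE for ATF5 (0.992), JUNB for ATF3 (0.949) and S100P for DDIT3 (0.953). For the targets it was SLC39A3 for CHAC1 (0.995), TBC1D20 for TRIB3 (0.984), COLGALT1 for SESN2 (0.987) and NAT10 for ASNS (0.988). The remaining members had HSD17B11 (PPP1R15A, 0.991) and NCK2 (DDIT4, 0.986). JUNB is itself an immediate early gene, and NAT10 an RNA acetyltransferase of the nucleolus. TBC1D20 (chr20:435480-462553) lies 37.9 kb from TRIB3 on the same chromosome, the only one of the 10 closest genes on its member's chromosome.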

How the data were processed

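Values in the deposited table are raw counts of reads by Ensembl gene identifier, with no normalization, for 58735 identifiers in 12 libraries. Per the labels' protocols, total RNA was made into libraries and read as 150-base pairs. STAR 2.5.1b and hg19 were used, per the submitters' processing notes, yet the identifiers equal those of GENCODE 29, which annotates GRCh38, and the build behind the counts is therefore uncertain. Gene positions are from GENCODE 29. How reads were counted, with or without strand and with or without multiple matches, is not given in the sources used here.

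The tests were run with edgeR 4.0.16 on limma 3.58.1 in R 4.3.3 (filterByExpr, TMM scaling, robust quasi-likelihood F-tests, two-sided, Benjamini-Hochberg adjustment over 15060 genes, called at an adjusted p under 0.05). The 12 libraries were fitted in 4 groups, control or sgUTX by treatment (8 residual degrees of freedom), with both KDM6A guides as replicates. All control libraries come from the sgLuc line, so a trait of that line cannot be told apart from the genotype. The p-values do not measure the spread between control lines. The guides were compared in a 6-group fit with 6 residual degrees of freedom. Standard errors are the absolute log2 fold change divided by the square root of F. The 95% intervals take that standard error and a t distribution with 8 degrees of freedom, which need not equal those of the F-test. An interval can therefore span 0 where the unadjusted p is under 0.05. CPM is scaled by TMM factors, and log2 CPM used a prior count of 2. DESeq2 1.42.0 and the other alternatives are in the closing section. The tests were checked on simulated counts.

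The 10 members, the 13 lists beside them and the tests were chosen with earlier results of these data known. The result of 1 of these lists, a list of markers, is not reported here. All members are named. Of each list, at most 3 genes are named, those with the largest log2 fold change past the test and at least 1 mean CPM. The most similar gene is that with the highest Pearson correlation over the 12 libraries. SD and n refer to libraries.

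No 2 libraries of a combination were identical, and their chi-square per gene lay between 2.85 and 6.26, above that of sampling alone, so all were kept. Promoter windows were matched to RefSeq by symbol for all 10 members (18 windows).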

Additional observations from a re-analysis of the deposited data

Results flagged for a closer look

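The difference between the SGC0946 response of sgUTX cells and that of control cells passed edgeR's test for 7 of the 10 members. Of all genes, 18.3% passed it as higher and 16.5% as lower. The values of the 7 members are those a reader may want to look at again. On the log2 scale the difference was -2.52 for ATF3, -0.94 for TRIB3, -0.66 for SESN2, 0.34 for DDIT4, 0.41 for ATF4, 0.85 for CHAC1 and 1.06 for ASNS. ATF3 was the only one of these with opposite directions in the 2 genotypes. Each test uses only 2 libraries of each control group, and the values for ASNS and DDIT4 missed the threshold under other settings. Within the 4 sgUTX libraries of each treatment, no library of any member stood apart from the other 3, in 20 sets of 4 tested with Dixon's criterion.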

How the results depend on the processing

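Leaving out each library in turn, another scaling, no filter, DESeq2, a fit of 6 groups, single guides and only the groups compared left the counts of members called between genotypes and between treatments within 1.5 times. With library size alone, members called higher in the difference of responses numbered 2, and 2 to 5 without 1 library (2 without control DMSO replicate 2, control SGC0946 replicate 1 or sgUTX_2 SGC0946 replicate 2). Counts between the guides moved most. In DMSO, members called higher numbered 1 with no filter and 0 to 2 without 1 library, and members called lower 0 to 1. With SGC0946, higher calls numbered 0 with DESeq2 and 0 to 1 without 1 library, and lower calls 1 with no filter, 1 with DESeq2 and 0 to 1. Over all genes, 88 to 682 were called between guides in DMSO (fewest without sgUTX_4 DMSO replicate 1) and 90 to 608 with SGC0946 (fewest without sgUTX_4 SGC0946 replicate 1). Signs turned for values that did not pass: with sgUTX_4 alone, ATF4 and ATF5 in DMSO became -0.052 and -0.082. With library size alone, the SGC0946 response of SESN2 in control cells became 0.0063. With sgUTX_2 alone, the PPP1R15A difference of responses became 0.051, and it lay between -0.18 and 0.068 without 1 library. Without 1 library, ATF5 in DMSO lay between -0.0045 and 0.18 and the PPP1R15A response in control cells between -0.24 and 0.0019. The cause was not tested. The control groups hold 2 libraries each and ASNS as few as 12 counts, which limits its precision.

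The labels do not say whether a replicate number is shared between groups. The correlation of same-numbered deviations over 15 pairs of groups lay between -0.111 and 0.0731, with 0 over 0.1. No large effect shared by number was thus seen, but these values cannot show that same-numbered libraries were handled apart. With the replicate block, the count of all genes called, sgUTX against control in DMSO, was 9072 (9188 without it). In the guide comparisons, members called lower numbered 0 in DMSO, and with SGC0946 0 were higher and 1 was lower.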
